A study of Homo sapiens with 6 samples.

Results

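The genes described here are 10 members of the BCL2 family, chosen by name among 58336 gene identifiers as the members outside the direct p53 targets. They comprise 5 prosurvival genes (MCL1, BCL2L1, BCL2L2, BCL2 and BCL2A1) and 5 proapoptotic genes (BAK1, BID, BCL2L11, BMF and BIK). RNA-seq of 12Z cells, a human line of endometriotic epithelium, compared cells given siRNA to SMARCA4 (siBRG1) with cells given a siRNA that has no target (control). SMARCA4 encodes BRG1, the motor subunit of SWI/SNF chromatin remodellers, and the series asks what inactivating these remodellers does to an epithelium. Each group held 3 libraries (n = 3). Both groups were grown in 10% serum and received siRNA at 50 nM. Fresh medium followed at 24 h, medium with 0.5% serum at 48 h and lysis for RNA at 72 h, per the labels' protocols. The model is 1 cell line with a transient knockdown, and no label states whether a group's libraries come from different cultures. The p-values therefore reflect only library-to-library spread, possibly technical. The labels mark all 3 control libraries, and no siBRG1 library, as samples of a previous deposit used again. A difference of deposit and the knockdown therefore cannot be told apart. In bulk RNA, fewer cells that express a gene and less of its RNA per cell cannot be told apart either.

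BCL2 family proteins decide whether the outer mitochondrial membrane is permeabilised, the step that releases cytochrome c and starts the caspase cascade of intrinsic apoptosis. Prosurvival members hold the effectors BAK and BAX and the BH3-only proteins in inactive complexes. BH3-only proteins, such as BIM (encoded by BCL2L11), BID, BMF and BIK, occupy the prosurvival members or activate the effectors. Many of these proteins are also controlled after transcription, MCL1 by rapid turnover and BID by cleavage, which RNA counts do not show.

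Values below are CPM, the gene's counts as parts of a library's gene counts after TMM scaling, and log2FC, the log2 fold change of siBRG1 over control. SMARCA4 stood at 60.4, 78.8 and 50.5 CPM in siBRG1, against 244, 266 and 262 CPM in control, so 24.6% was left (log2FC −2.03, SE 0.161). Gene counts per library ran from 12391161 to 13369692 in siBRG1 and from 40228678 to 49720320 in control, so low genes are measured less precisely in siBRG1. Of 8 epithelial markers all 8 were detected, with a summed level of 3484 to 3739 CPM in siBRG1 and 3938 to 4023 CPM in control. EPCAM (1.61 CPM in siBRG1, 0.250 CPM in control) and CDH1 (5.87 CPM in siBRG1, 3.05 CPM in control), which define epithelium, were low and called higher. KRT7 (36.9 CPM in siBRG1, 196 CPM in control) and KRT19 (608 CPM in siBRG1, 882 CPM in control) were called lower, so that 4 of the 8 were higher and 2 lower. Of 8 immune markers 7 stayed under 1 CPM in every library and CD3E had 0 counts throughout. The summed immune level was 9.97 to 10.8 CPM in siBRG1 and 4.20 to 5.59 CPM in control, most of it CD14. The 5 endothelial markers summed to 15.0 to 21.3 CPM in siBRG1 and 17.4 to 20.1 CPM in control. The 6 markers of stromal fibroblasts summed to 2285 to 2551 CPM in siBRG1 and 694 to 784 CPM in control. Of these 6, 5 were called higher, among them COL3A1 (1615 CPM in siBRG1, 293 CPM in control). THY1 was called lower (287 CPM in siBRG1, 323 CPM in control). The part of these markers in the values below was not tested.

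The members covered a wide range of levels. Per kilobase of exon, so that genes of different length can be compared, MCL1 was the most abundant in siBRG1 (53.4 ± 2.13 CPM per kb, SD, n = 3) and in control (57.0 ± 0.293 CPM per kb). BCL2L1 followed at 35.3 ± 1.58 CPM per kb in siBRG1 and 29.6 ± 0.464 CPM per kb in control. BAK1 came next, at 18.0 ± 1.46 CPM per kb in siBRG1 and 15.7 ± 0.647 CPM per kb in control. BID followed, at 12.7 ± 0.836 CPM per kb in siBRG1 and 10.3 ± 0.0880 CPM per kb in control. The order of BAK1 and BID depends on the length used. The union of exons is 4446 bases for BID, whose longest transcript has 2495, and both lengths are 2212 bases for BAK1. These 4 genes kept the same order in both groups, and neighbours in that order did not overlap. Below them only BCL2L11 and BCL2L2 changed places by their means. In siBRG1 BCL2L11 (4.38 ± 0.534 CPM per kb) and BCL2L2 (3.62 ± 0.515 CPM per kb) overlapped, whereas in control BCL2L2 (6.54 ± 0.106 CPM per kb) stood clear above BCL2L11 (3.61 ± 0.318 CPM per kb). Counted per kilobase of exon that BCL2L2 does not share with a readthrough gene, BCL2L2 was at 4.49 CPM in siBRG1 and 8.12 CPM in control. By means this was above BCL2L11 in both groups, but in siBRG1 by less than the SD of BCL2L11. BMF stood clear above BIK in siBRG1 (1.98 ± 0.244 against 0.435 ± 0.257 CPM per kb) and overlapped it in control (0.646 ± 0.115 against 0.603 ± 0.0711 CPM per kb). BCL2, the founding member of the family, lay at 0.218 ± 0.0508 CPM per kb in siBRG1 and 0.203 ± 0.0228 CPM per kb in control.

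**Figure D1:**
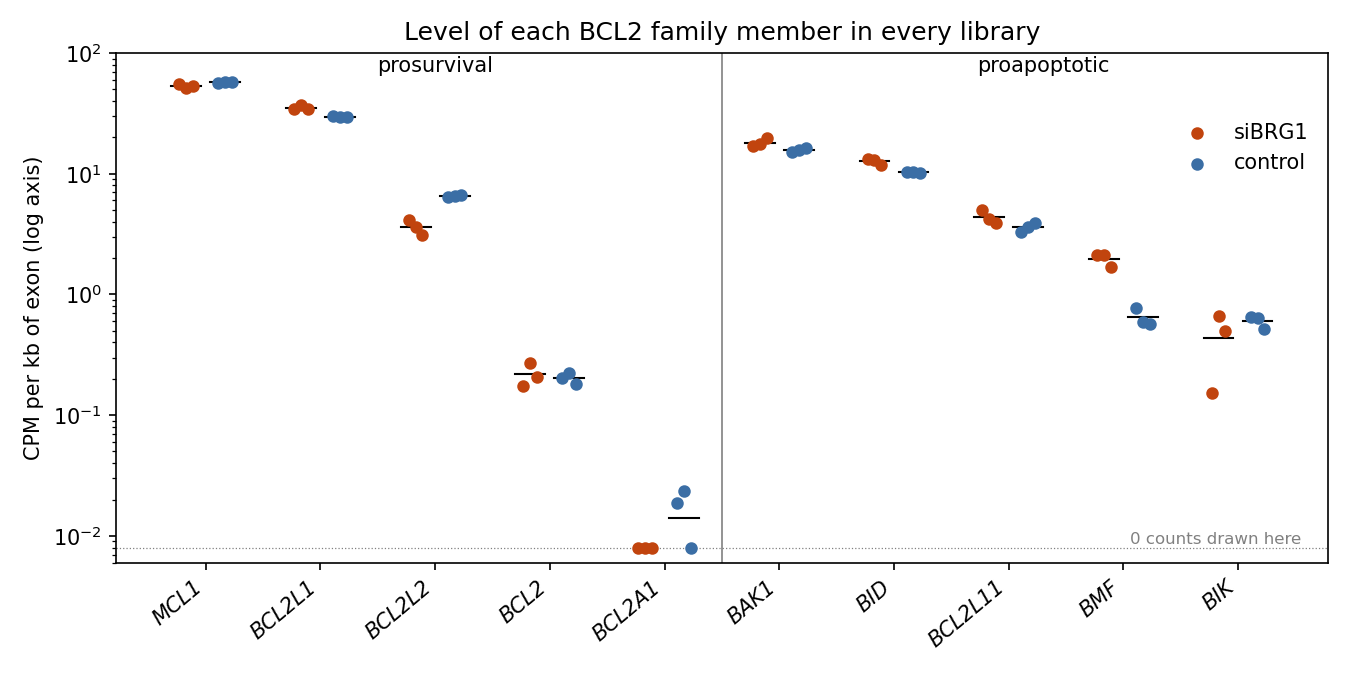
Level of each member in every library, in CPM per kb of exon on a log axis, with points for the 3 siBRG1 and 3 control libraries and a bar at the group mean; libraries with 0 counts are drawn on the dotted line. BMF is higher and BCL2L2 lower in all 3 siBRG1 libraries than in any control library, and BCL2 and BIK overlap.

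Of the 10 members 9 passed the count filter, 5 rose and 2 fell at an adjusted p under 0.05 (edgeR's quasi-likelihood test, Benjamini-Hochberg adjustment over 15830 genes), but BAK1 and BCL2L1, both among the 5, lost their calls once GC and length trends were removed. That left 5 of 9 members called, and the sign of BAK1 turned. Among all genes tested, 72.6% were called at that threshold, 36.1% higher and 36.5% lower, so 7 of 9 members called is close to the background. With a change of at least 1.5-fold also required, 1 member was called higher (BMF) and 1 lower (BCL2L2), where the background was 38.6% of genes, 19.6% higher and 19.1% lower. CPM values of the groups did not overlap for 7 of 9 members, against 74.3% of all genes tested (36.7% higher and 37.6% lower in siBRG1). By class, 1 of 4 prosurvival members tested rose (BCL2L1, by that same call), 2 fell and BCL2 did not pass, with a median log2FC of 0.00042. Of 5 proapoptotic members 4 rose and BIK did not pass, with a median of 0.28 that moved to 0.17 with GC content and length trends of each library removed, where BAK1 was no longer higher (log2FC −0.10). The median over all genes tested was −0.01. The difference between the classes was not tested, since the members were chosen with earlier results of these data known.

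**Figure D2:**
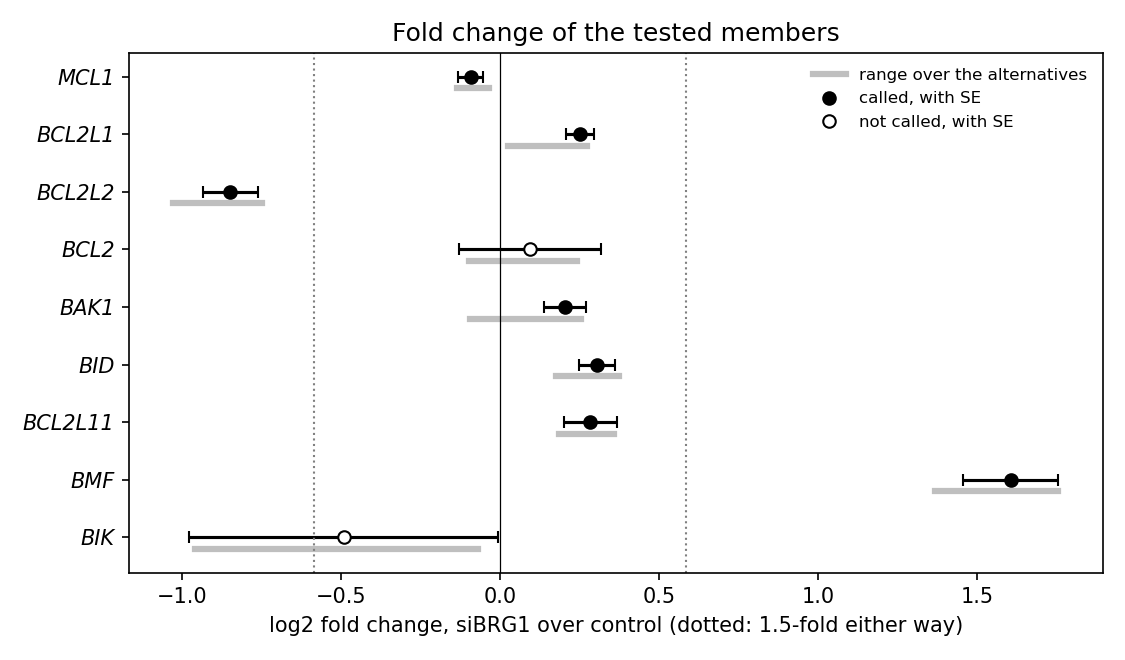
Log2 fold change (log2FC) of siBRG1 over control for the 9 tested members, with SE (filled points are called at an adjusted p under 0.05), and a grey bar for the range over the 15 alternative analyses. BMF and BCL2L2 lie beyond the dotted 1.5-fold lines over their whole range, and the ranges of BAK1 and BCL2 cross 0, BAK1 with GC and length trends removed and BCL2 without siBRG1 replicate 2.

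MCL1, a short-lived prosurvival protein that binds BAK1 and BIM, is encoded by ENSG00000143384.12 (chromosome 1, 150574551 to 150579738 on GRCh38, minus strand). It had 243, 224 and 233 CPM in the siBRG1 libraries and 248, 250 and 249 CPM in the control libraries. Every siBRG1 library lay below every control library, by a small margin. The log2FC was −0.09 (SE 0.0385, adjusted p = 0.0316), so that MCL1 fell by 6.27%. The call was lost with unstranded counts (log2FC −0.03, adjusted p = 0.432), with a filter of 50 counts in 3 libraries (adjusted p = 0.0628), without siBRG1 replicate 2 (log2FC −0.06, adjusted p = 0.152) and when siBRG1 replicate 3 was left out (adjusted p = 0.0598).

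BCL2L1, whose main product is the prosurvival protein BCL-XL, is encoded by ENSG00000171552.12 (chromosome 20, 31664452 to 31723989, minus strand). Its levels were 114, 123 and 114 CPM in siBRG1, against 100.02, 97.4 and 97.3 CPM in control. All siBRG1 libraries were above all control libraries. BCL2L1 rose by a log2FC of 0.25 (SE 0.0449, adjusted p = 1.47e-05), and this was 0.02 (adjusted p = 0.639) once GC and length trends were removed. Its longest transcript has a GC content of 56.9%. The opposite strand carries the antisense gene ABALON, which shares 1424 of the 3314 exon bases of BCL2L1. ABALON itself had 8, 13 and 4 counts in siBRG1 and 20, 24 and 21 in control (log2FC 0.32, adjusted p = 0.536). When strand was ignored, reads in shared bases went to neither gene and BCL2L1 kept 49.0 to 53.1% of its counts in siBRG1 and 55.2 to 59.2% in control. The log2FC was then 0.12 (adjusted p = 0.0679). Gene counts do not separate BCL-XL from the shorter proapoptotic splice form of the same gene.

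BCL2L2 encodes BCL-W, a prosurvival member (ENSG00000129473.9, chromosome 14, 23298790 to 23311759, plus strand). It stood at 17.3, 15.2 and 13.0 CPM in siBRG1, against 27.0, 27.4 and 27.9 CPM in control. The highest siBRG1 library was far below the lowest control library. BCL2L2 fell by 0.85 on the log2 scale (SE 0.0870, adjusted p = 9.17e-10), the largest fall among the members called, and control was 1.80-fold above siBRG1. Over the alternative analyses its log2FC ran from −1.03 to −0.75 and the call held in all 15. Of its exon bases 813, or 19.4%, lie in the readthrough gene BCL2L2-PABPN1, and reads there are assigned to neither gene, so its level per length is underestimated. The levels per kilobase of unshared exon are those given with the order of levels. The readthrough gene was itself lower, with 0, 2 and 3 counts in siBRG1 and 24, 17 and 22 in control (log2FC −1.91, adjusted p = 0.0129). On the opposite strand PPP1R3E, which shares 206 exon bases, had 8.58 ± 0.371 CPM in siBRG1 and 7.80 ± 0.873 CPM in control (SD, n = 3) and did not pass (log2FC 0.13, adjusted p = 0.344).

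BCL2 (ENSG00000171791.12, chromosome 18, 63123346 to 63320128, minus strand) had 2.04, 3.21 and 2.43 CPM in siBRG1 and 2.41, 2.65 and 2.11 CPM in control. The groups overlapped, and the test was not passed (log2FC 0.09, SE 0.223, adjusted p = 0.715). The siBRG1 values rest on 100 counts over 3 libraries, with an SE that leaves changes of either sign possible. BCL2A1, a prosurvival gene best known from blood cells, had 0 counts in every siBRG1 library, against 1, 1 and 0 counts in control. It did not pass the filter and no fold is given. At these depths 3 counts over the group stand for 0.0784 CPM in siBRG1 and 0.0228 CPM in control, a limit that covers counting error only.

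BAK1, an effector that forms pores in the outer mitochondrial membrane (ENSG00000030110.12, chromosome 6, 33572547 to 33580293, minus strand), had 37.2, 39.1 and 43.5 CPM in siBRG1, against 33.3, 34.6 and 36.2 CPM in control. The lowest siBRG1 library lay just above the highest control library. BAK1 rose by a log2FC of 0.20 (SE 0.0662, adjusted p = 0.00778), and with GC and length trends removed the sign turned (log2FC −0.10). Its longest transcript has a GC content of 58.8%, the highest among the members. The call was also lost with the DESeq2 test (adjusted p = 0.0560), on leaving out siBRG1 replicate 3 (adjusted p = 0.0802) and without control replicate 1 (adjusted p = 0.0648).

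Among the BH3-only genes, BMF changed most. BMF encodes a protein that is held on the cytoskeleton and binds prosurvival members when released (ENSG00000104081.13, chromosome 15, 40087890 to 40108892, minus strand). It had 158, 148 and 118 counts in the siBRG1 libraries and 206, 126 and 125 counts in the deeper control libraries. Relative to depth these were 11.5, 11.6 and 9.25 CPM in siBRG1, against 4.24, 3.21 and 3.11 CPM in control. The lowest siBRG1 library lay far above the highest control library. BMF rose 3.04-fold (log2FC 1.61, SE 0.148, adjusted p = 1.13e-10), and 95.9% of genes tested had a smaller log2FC. The log2FC ran from 1.37 to 1.76 over the alternative analyses and the call held in all 15. Its antisense partner BMF-AS1, which shares 461 exon bases, had 0 counts in siBRG1 and 1 count in control.

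BID, which links death receptor signalling to mitochondria once cleaved by caspase-8 (ENSG00000015475.18, chromosome 22, 17734138 to 17774770, minus strand), had 59.2, 58.0 and 52.3 CPM in siBRG1, against 45.6, 46.2 and 45.5 CPM in control. The groups did not overlap. BID rose by a log2FC of 0.30 (SE 0.0571, adjusted p = 2.83e-05), which held in all 15 alternatives and was 0.17 (adjusted p = 0.00674) once GC and length trends were removed.

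BCL2L11, which encodes BIM, a BH3-only protein that binds all main prosurvival members (ENSG00000153094.22, chromosome 2, 111119378 to 111168447, plus strand), had 33.0, 28.3 and 26.1 CPM in siBRG1, against 21.8, 24.2 and 26.0 CPM in control. The lowest siBRG1 and the highest control library nearly touched. BCL2L11 rose by a log2FC of 0.28 (SE 0.0838, adjusted p = 0.00371). The call was lost without siBRG1 replicate 1 (log2FC 0.18, adjusted p = 0.0749) and without control replicate 1 (log2FC 0.20, adjusted p = 0.0553). The noncoding gene MIR4435-2HG shares 727 exon bases on the opposite strand. It had 67.7 ± 6.14 CPM in siBRG1 and 71.0 ± 2.34 CPM in control (SD, n = 3), and did not pass (log2FC −0.07, adjusted p = 0.299).

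BIK, a BH3-only protein of the endoplasmic reticulum (ENSG00000100290.2, chromosome 22, 43110748 to 43129712, plus strand), was close to the detection limit. It had 2, 8 and 6 counts in siBRG1 and 30, 24 and 20 counts in control, or 0.146, 0.627 and 0.470 CPM in siBRG1 and 0.617, 0.611 and 0.497 CPM in control. The groups overlapped and the test was not passed (log2FC −0.49, SE 0.486, adjusted p = 0.368). With unstranded counts, which gave 3, 8 and 6 counts in siBRG1 and 45, 38 and 30 in control, BIK was called lower (log2FC −0.96, adjusted p = 0.0496). Unstranded counts include the opposite strand, which had 1, 0 and 0 counts in siBRG1 and 16, 14 and 13 in control. That call therefore does not rest on the strand of BIK alone.

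The stretch before a transcription start is shown for BMF, the member with the largest change, and for BCL2L11, a textbook FOXO target. Both hold the 250 bases before a RefSeq start on GRCh38.p14, 5′ to 3′ on the gene's own strand. The BCL2L11 stretch lies inside the gene span given above, which begins at 111119378, and so not before that span. Capitals mark matches to the letters GTAAACA (a FOXO core), TGANTCA (an AP-1 site), CACGTG (an E-box) or GGGCGG (a GC box) on either strand.
BMF, chr15:40108880-40109129, minus strand: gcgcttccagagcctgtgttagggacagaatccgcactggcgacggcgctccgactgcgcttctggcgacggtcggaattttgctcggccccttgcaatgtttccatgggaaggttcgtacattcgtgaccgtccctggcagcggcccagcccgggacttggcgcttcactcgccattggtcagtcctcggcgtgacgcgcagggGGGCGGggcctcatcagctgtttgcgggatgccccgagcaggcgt
BCL2L11, chr2:111120664-111120913, plus strand: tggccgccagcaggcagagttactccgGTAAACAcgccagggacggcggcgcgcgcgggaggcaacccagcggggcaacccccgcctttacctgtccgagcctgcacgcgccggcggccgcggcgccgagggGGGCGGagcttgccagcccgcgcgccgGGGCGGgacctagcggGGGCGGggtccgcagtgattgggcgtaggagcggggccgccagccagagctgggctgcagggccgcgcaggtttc

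The BMF stretch holds 1 GC box and none of the other letters, and the BCL2L11 stretch holds 1 FOXO core and 3 GC boxes. The second BMF window of the same table, at another start, held no match. RefSeq windows, which reach from 250 bases before to 50 after a start, were found for 7 members, 13 windows in all, and BCL2L2, MCL1 and BIK had no entry. Among them only the BCL2L11 window held GTAAACA, and among all 34943 windows 3.42% did. TGANTCA was found in no member window and in 7.72% of all windows, and CACGTG in 2 windows of BID and in 7.23% of all. GGGCGG was found in 1 window each of BCL2L1, BCL2L11, BAK1 and BMF and in 4 of 5 windows of BID, some of which overlap. Among all windows 44.9% held GGGCGG. A match describes letters only. No file here measures binding at these sites.

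FOXO1 and FOXO3, transcription factors that act on such sites, were called lower, with log2FC values of −0.41 (SE 0.146, adjusted p = 0.0136) and −0.19 (SE 0.0605, adjusted p = 0.00589). The groups of FOXO3 overlapped. The call of FOXO1 was lost with libraries thinned to the shallowest and that of FOXO3 without siBRG1 replicate 3.

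Summed per kilobase of exon, the 5 prosurvival members came to 94.3, 92.3 and 91.0 CPM per kb in the siBRG1 libraries, against 93.5, 93.4 and 93.2 CPM per kb in the control libraries. These sums overlapped. The 5 proapoptotic members came to 37.4, 37.7 and 37.5 CPM per kb in siBRG1, against 30.0, 30.9 and 31.6 CPM per kb in control. These did not overlap. The ratio of the prosurvival to the proapoptotic sum was 2.52, 2.45 and 2.43 in siBRG1 and 3.11, 3.03 and 2.95 in control. Sums over chosen members carry no test. BAK1 made up 48.1 ± 3.85% of the proapoptotic sum in siBRG1 and 50.8 ± 0.832% in control (SD, n = 3). The ratio thus leans on a gene whose change turned sign with GC and length trends removed. These sums, shares and ratios also depend on the length used, most of all for BID, as given with the order of levels. For the 4 BH3-only genes alone, without BAK1, the sum was 19.5 ± 1.43 CPM per kb in siBRG1 and 15.2 ± 0.168 CPM per kb in control, with prosurvival over BH3-only ratios of 4.59, 4.60 and 5.10 in siBRG1 and 6.25, 6.12 and 6.12 in control. No sum or ratio was recomputed with GC and length trends removed. In that setting the log2FC was 0.17 for BID, the largest part of the BH3-only sum, and 0.02 for BCL2L1.

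**Figure D3:**
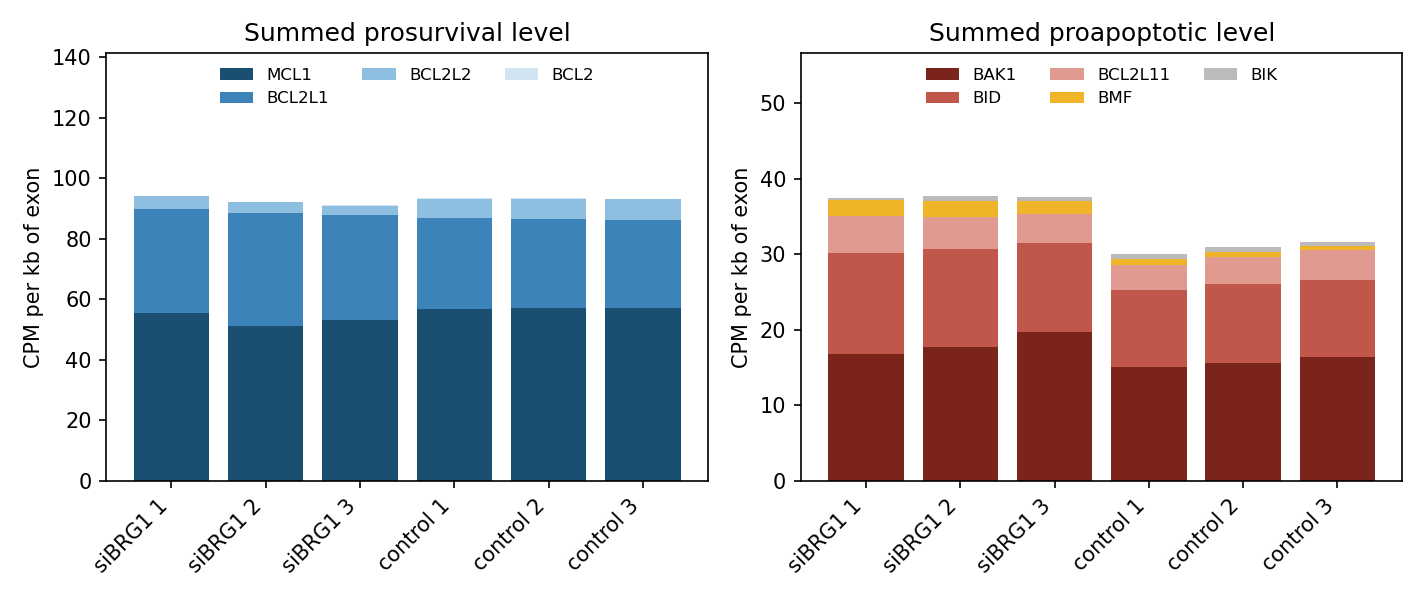
CPM per kb of exon in each library, stacked by gene, for prosurvival members (left) and proapoptotic members (right); BCL2A1 is left out at 0 to 2 counts a group. The prosurvival sums lie between 91.0 and 94.3 in siBRG1 and between 93.2 and 93.5 in control, and the proapoptotic sums between 37.4 and 37.7 in siBRG1 and between 30.0 and 31.6 in control.

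The make-up of each class also differed. MCL1 held 57.7 ± 1.86% of the prosurvival sum in siBRG1 and 61.0 ± 0.365% in control, BCL2L1 held 38.2% in siBRG1 and 31.7% in control, and BCL2L2 held 3.91 ± 0.488% in siBRG1 and 7.01 ± 0.125% in control (SD, n = 3). MCL1 exceeded BCL2L1 per length 1.52 ± 0.121 times in siBRG1 and 1.92 ± 0.0389 times in control. The shares of MCL1 and BCL2L1 and this ratio rest in large part on the rise of BCL2L1. That rise was 0.02 on the log2 scale and not called after removal of GC and length trends. The share of BCL2L2 goes with the fall of BCL2L2 itself, a call that held in all 15 alternatives. BMF held 5.27 ± 0.647% of the proapoptotic sum in siBRG1 and 2.10 ± 0.427% in control. BCL2L2 and BMF had the largest fall and the largest rise among the members called, a pair taken after their values were seen. Per length BCL2L2 exceeded BMF 1.96, 1.70 and 1.83 times in the siBRG1 libraries, against 8.28, 11.1 and 11.7 times in the control libraries.

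The authors' deposited table lists 9 of the 10 members, all except BCL2A1. In the authors' deposited table the log2FC ran from −0.88 for BCL2L2 (adjusted p = 1.47e-22 by DESeq2) to 1.58 for BMF (adjusted p = 1.08e-23 by DESeq2). All 9 had the sign found here, and 7 had an adjusted p under 0.05 by DESeq2 in the authors' deposited table. It rests on the same libraries and is no independent check.

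Other apoptosis genes, 54 in 6 lists, were read from the same fit. Of 48 tested, 21 rose and 16 fell. Among all genes tested 72.6% were called, 36.1% higher and 36.5% lower, so 37 of 48 called is close to the background. Of the rest of the BCL2 family and the BNIP genes, 10 of 13 were tested, 7 rose and 2 fell, with a median log2FC of 0.34. With GC and length trends removed 6 were higher and 3 lower, BOK losing its call and BAX being called lower, and the median was 0.18. BBC3, which encodes the BH3-only protein PUMA and is a p53 target, had 3.80 ± 0.864 CPM in siBRG1 and 1.49 ± 0.0976 CPM in control. BBC3 rose by a log2FC of 1.35 (SE 0.222), or by 0.94 with GC and length trends removed. BAD, a BH3-only gene whose protein is held by 14-3-3 proteins when phosphorylated, had 71.5 ± 1.33 CPM in siBRG1 and 30.8 ± 0.304 CPM in control. The log2FC of BAD was 1.21 (SE 0.0547), or 0.71 with unstranded counts and 0.82 with GC and length trends removed. BNIP3, a mitophagy receptor, fell by 0.19 on the log2 scale (SE 0.0419), or by 0.38 with GC and length trends removed. BAX, the second effector beside BAK1, stood at 66.2 ± 2.88 CPM in siBRG1 and 69.5 ± 2.64 CPM in control and did not pass (log2FC −0.07, adjusted p = 0.226), though it was called lower with GC and length trends removed (log2FC −0.36). HRK, a BH3-only gene, was the other that fell (log2FC −1.44, SE 0.386), on 18 counts over the siBRG1 libraries.

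Downstream of the mitochondria, 5 of 10 genes of the apoptosome, the caspases and the released proteins rose and 2 fell, with a median of 0.11. With GC and length trends removed 4 were higher and 4 lower, with a median of 0.03, and HTRA2 and AIFM1 were then called lower. HTRA2, 1 of the 5, was not called in 11 of 15 alternatives. CASP9, the initiator caspase of the apoptosome, rose by a log2FC of 0.74 (SE 0.113), or by 0.53 with GC and length trends removed. ENDOG, a mitochondrial nuclease, rose by 0.56 (SE 0.122), or by 1.94 with unstranded counts and 0.32 with GC and length trends removed. CYCS, which encodes cytochrome c, fell to 214 ± 15.9 CPM in siBRG1, against 359 ± 2.60 CPM in control (log2FC −0.75, SE 0.0430). CYCS has processed pseudogenes that can take its reads. DIABLO, which encodes the IAP antagonist SMAC, had the largest fall (log2FC −1.82, SE 0.229), but the annotation holds a pair of overlapping genes of that name, so its value is uncertain. Of 7 inhibitor of apoptosis genes 5 were tested, 2 rose and 3 fell, with a median of −0.27, or −0.15 with GC and length trends removed. BIRC3, which encodes cIAP2, rose by a log2FC of 0.74 (SE 0.0888) and BIRC2, which encodes cIAP1, by 0.25 (SE 0.0470). BIRC6, a giant ubiquitin ligase, fell by 0.74 on the log2 scale (SE 0.0479), or by 0.51 with GC and length trends removed. BIRC5, which encodes survivin, fell by 0.28 (SE 0.0378), or by 0.45 with GC and length trends removed.

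In the death receptor list 7 of 10 genes rose and none fell, where 36.1% of all genes tested were higher and 36.5% lower. The median was 0.56, beside −0.01 over all genes tested. With GC and length trends removed 6 were higher and 1 lower, and the median was 0.47. FAS, a death receptor and p53 target, stood at 6.97 ± 0.799 CPM in siBRG1 and 2.85 ± 0.346 CPM in control (log2FC 1.28, SE 0.163). TRADD, an adaptor of the TNF receptor, rose by a log2FC of 0.84 (SE 0.144), or by 0.45 with GC and length trends removed. In that analysis FADD was no longer called and RIPK1 was called lower. CASP8, which cleaves BID, had 36.3 ± 4.94 CPM in siBRG1 and 36.9 ± 1.17 CPM in control and did not pass (log2FC −0.02, adjusted p = 0.773). Of 8 regulators of MCL1 and BIM 7 were tested, 4 fell and none rose, with a median of −0.19, though MAPK8, a kinase of BIM, was called higher with GC and length trends removed (log2FC 0.15, adjusted p = 0.00686). USP9X, a deubiquitinase that stabilises MCL1, fell by 0.55 on the log2 scale (SE 0.0394), or by 0.35 with GC and length trends removed. FBXW7, a ubiquitin ligase subunit that marks MCL1 for turnover, fell by 0.42 (SE 0.0707), or by 0.30 with GC and length trends removed. HUWE1, another ligase of MCL1, had a log2FC of −0.06 and did not pass (adjusted p = 0.272). Of 6 genes of outer membrane channels and import 5 fell and none rose, with a median of −0.63. VDAC1 had 251 ± 1.55 CPM in siBRG1 and 452 ± 12.0 CPM in control (log2FC −0.85, SE 0.0372), and VDAC2, a channel that binds BAK1, had 75.9 ± 4.79 CPM in siBRG1 and 126 ± 1.99 CPM in control (log2FC −0.73, SE 0.0481). Of the 37 genes called in these lists, 31 were called the same way in all 15 alternatives or in as many as tested them. The lists were drawn up with earlier results of these data known and were not tested as sets.

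**Figure D4:**
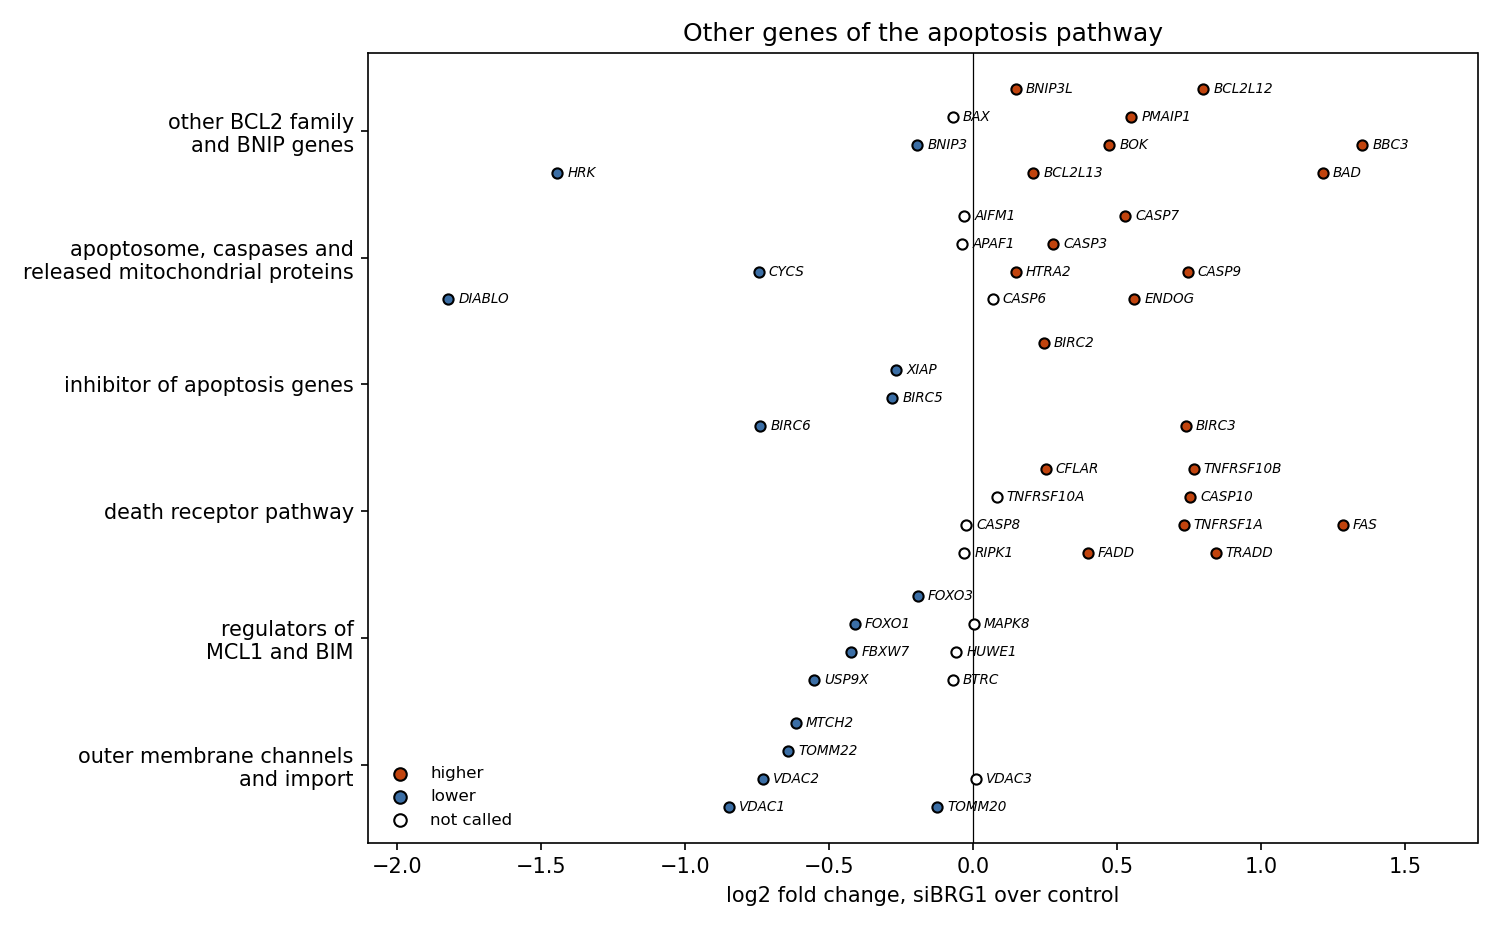
Log2 fold change (log2FC) of siBRG1 over control for the 48 tested genes of the 6 other apoptosis lists, 1 point per gene, filled by call at an adjusted p under 0.05 (higher, lower or not called). The death receptor list has no gene called lower and the outer membrane list none called higher in this fit, while the BCL2 family, caspase and inhibitor lists hold calls of both signs; with GC and length trends removed HTRA2, AIFM1, BAX and RIPK1 were called lower and MAPK8 higher.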

How the data were processed

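The authors deposited raw counts per gene for each library, in the layout STAR writes. Per the submitters' processing notes the build was GRCh38.p12 and the tools were STAR, DESeq2, Trim Galore, cutadapt and FastQC, with no version. The sources used here give no annotation release. Per the file headers, the authors' deposited table of the whole series gives log2 fold changes, p-values, a test statistic and a weight (both a score), and a mean signal; of these the log2 fold change, its SE and the adjusted p were used. Of 58336 gene identifiers 58216 matched GENCODE release 29, including all 10 members with their version.

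Column 4 was used, since its gene total exceeded that of the opposite strand in each library. STAR's summary entries were not treated as genes; in siBRG1 and control they were 1.84% and 1.64% unmapped, 20.3% and 9.81% multimapping, 3.97% and 13.3% without a feature and 3.11% and 4.16% ambiguous, of all reads. Libraries of a group differed by more than counting noise (chi-square over its degrees of freedom, 2.64 to 4.55), and none was dropped.

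Groups were compared with edgeR 4.0.16 (R 4.3.3, TMM, filterByExpr, robust quasi-likelihood, two-sided, adjusted p under 0.05). The code was run first on simulated data in which few genes changed. It was therefore not checked for data where most genes are called, as here. SE is the log2 fold change over the square root of F. A symbol with more than 1 identifier stands for the one with most counts. Length is the union of exons. The alternatives were DESeq2 1.42.0, its size factors, other filters, unstranded counts, thinning, protein-coding genes alone, GC and length offsets, a replicate block and each library left out. Members and lists were chosen with earlier results of these data known. Named were all members and, per list, up to 2 genes called in each direction with the largest change and a mean of at least 50 counts; others (BAX, HRK, CASP8, HUWE1, FOXO1, FOXO3, VDAC and partner genes beyond that rule) were chosen for their role or after their values were seen.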

Additional observations from a re-analysis of the deposited data

Results flagged for a closer look

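Antisense counts entered the fits above only with unstranded counts. Relative to gene counts, given here as CPM without TMM scaling, 3 members had more of them in every siBRG1 library than in any control library. Counts antisense to MCL1 averaged 1.61 CPM in siBRG1 (range 1.453 to 1.87, 62 counts) and 0.888 CPM in control (range 0.649 to 1.05, 118 counts). Counts antisense to BCL2L11 averaged 1.11 CPM in siBRG1 (range 0.524 to 1.68, 42 counts) and 0.228 CPM in control (range 0.174 to 0.289, 30 counts). Counts antisense to BID averaged 3.89 CPM in siBRG1 (range 3.15 to 5.16, 150 counts) and 2.55 CPM in control (range 2.28 to 2.80, 337 counts). Counts antisense to BIK went the other way, with 1, 0 and 0 counts in the siBRG1 libraries and 16, 14 and 13 in the control libraries. Of 8 members with more than 3 antisense counts over all libraries, 3 were higher and 1 lower in siBRG1 without overlap. Of 12985 genes tested that passed the same minimum, 15.7% were higher and 19.7% lower in siBRG1 without overlap. Antisense counts made up 6.03% of stranded gene counts in siBRG1 and 6.16% in control, and these differences were not tested.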

How the results depend on the processing

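The calls of BMF, BCL2L2 and BID held in all 15 alternatives, with log2 fold changes of 1.37 to 1.76, −1.03 to −0.75 and 0.17 to 0.37. The number of members called was 5 to 7, and the number of genes called 9688 to 12541. With GC and length trends removed the proapoptotic median was 0.17, and BAK1 reversed (−0.10). With unstranded counts the ratio of summed prosurvival to proapoptotic level was 2.23 in siBRG1 and 2.85 in control. BCL2, which was not called, reversed without siBRG1 replicate 2; leaving out 1 library each gave −0.10 to 0.24. The cause of these changes was not tested. With no count filter the median over all genes moved to −0.30, as genes of few counts entered. Replicate numbers are shared by the labels, but same-numbered libraries did not deviate together (correlations of −0.0126, 0.0220 and 0.00898), so they share only a number; with the replicate block 7 members and 11194 genes were called. BIK was tested in 10 of 15 alternatives. Depth limits BIK, BCL2 and BCL2A1. Of 180 list counts under alternatives, 176 were within 1.5 times of the value given. The others were the caspase list lower (4), the death receptor list lower (1) and the regulator list higher (1), with GC and length trends removed, and the BCL2 family list lower (1) with the 50-count filter.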
